A study of Mus musculus with 192 samples.

Results

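The 10 genes described here encode chains of the receptors for interleukins and colony-stimulating factors, with the chemokine receptor Cxcr4 grouped with them. They were taken by symbol from a table of 49466 mouse genes counted in single erythroid progenitors, and each symbol matched 1 gene. Csf2rb, Csf2rb2, Il6st and Il2rg are the shared chains, of which all but Csf2rb2 serve several cytokines. Csf2ra, Il3ra, Il6ra, Csf3r and Il7r are the 5 ligand-specific chains, and Cxcr4 is a G protein-coupled receptor for CXCL12 rather than a chain of an interleukin or colony-stimulating factor receptor.

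Cells came from the livers of C57/Bl6J fetuses at embryonic day 14.5, with no genotype change or treatment in the labels. Cells bearing lineage antigens, Sca-1, CD16/32 or CD41 had been depleted with beads, and the remaining cells were sorted by CD117, CD71 and CD24 singly into wells for full-length SmartSeq2 libraries. Colony-forming units-erythroid (CFU-E) filled a plate, and the burst-forming units-erythroid (BFU-E), which precede them in erythroid development, filled another. Neither the gates nor how many animals were used is known here. CFU-E and BFU-E cells had a plate and a sequencing lane each, so a plate or lane effect and a cell type effect cannot be told apart, and each cell type is 1 sample without a replicate. No difference below therefore has a p-value. All intervals are 95% intervals of counting error only and leave out the spread between cells, animals and plates. PCR copies cannot be recognised without molecular identifiers, so reads are not independent and the intervals of levels and folds are too narrow.

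Of 95 CFU-E and 96 BFU-E cells, 89 and 92 held at least 100000 counts and 2000 genes and were kept. Kept CFU-E cells had a median of 1005516 counts (131891 to 2992101), and kept BFU-E cells a median of 1120768.5 (114288 to 3864040). Each cell was thinned to 100000 counts, so 1 count in a cell equals 10 CPM (counts per 1000000), and levels are CPM of the summed cells. The plates shared 95 index pairs, in different lanes.

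A receptor of this family pairs a ligand-specific chain, which binds the cytokine, with a shared chain that passes the signal to Janus kinases and STAT factors. Csf2rb carries signals of IL-3, IL-5 and GM-CSF, and Csf2rb2, a duplicate found in the mouse, serves IL-3 alone. Il6st, also called gp130, serves IL-6 and its relatives, Il2rg serves IL-7 and other lymphoid interleukins, and Csf3r signals for G-CSF as a homodimer without a shared chain. These receptors are known for myeloid and lymphoid progenitors, while CFU-E cells depend on erythropoietin.

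In GRCm38 the genes are spread over several chromosomes. Csf2rb, Csf2rb2 and Il7r (chr15:9505788-9530176, minus strand) lie on chromosome 15. Il6st is at chr13:112464070-112510086 (plus), Il6ra at chr3:89864059-89913196 (minus), Csf3r at chr4:126024550-126044440 (plus) and Csf2ra at chr19:61223957-61228429 (minus). Il3ra is at chr14:14346275-14356011 (plus), Il2rg at chrX:101264378-101268255 (minus) and Cxcr4 at chr1:128588199-128592293 (minus). Il6ra and Il3ra share 242 and 46 exonic bases with the antisense genes Gm42809 and Gm48860, and without strand the reads there cannot be told apart.

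Neither plate was uniform, and this bears on every value below. The BFU-E cells fell into 2 clusters (mean silhouette 0.319), built on variable genes that did not include the 10 receptor genes. Cluster 1, with 54 cells, was led by Mfsd2b, Ermap, Car1 and Kel and held 2281 CPM of 18 summed erythroid markers. Cluster 2, with 38 cells, was led by Tifab, Ncf1, Csf1r and Ighm and held 335 CPM of the erythroid markers. All 18 granulocyte-monocyte markers together reached 5603 CPM in cluster 2 and 225 CPM in cluster 1, with counts of 17 and 11 of the genes. Mpo, their most abundant gene, stood at 4015 CPM in cluster 2 and 146 CPM in cluster 1. The 24 lymphoid markers summed to 630 CPM in cluster 2 and 37.04 CPM in cluster 1, and the 12 stem and multipotent markers to 2244 and 481 CPM. Only 1 of the 10 leading genes of cluster 2 was on a marker list, so it is called by its number. Cluster 2 cells lay under all 12 first indices of the plate, 2 to 5 under each.

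On the CFU-E plate the clusters were poorly separated (silhouette at most 0.152), but 3 cells held 11 of the 24 lymphoid markers each, among them Ighm at 2773 CPM. The other 86 CFU-E cells held at most 3 of those markers. The 3 cells, called lymphoid-like here, were set apart after their values were seen, by a count of at least 5 of the markers. The other 86 held 11847 CPM of the erythroid markers, with the erythroid factor Gata1 at 456 CPM, and 6.28 CPM of the lymphoid ones. The bead depletion included CD45R, an antigen of B cells, and CD11b, Ly-6G and CD16/32, antigens of granulocytes and monocytes. All differences between clusters describe the same cells that were clustered.

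In the sums of all kept cells, all 10 receptor genes were at least 2-fold lower in CFU-E than in BFU-E cells: 4 of 4 shared chains, 5 of 5 ligand-specific chains and Cxcr4. Of 9440 genes with a mean of at least 5 CPM over the plates, 34.2% were at least 2-fold lower in CFU-E cells and 6.45% higher. Only 7 of the 10 reached that mean, without Csf2rb2, Csf2ra and Il3ra, which are counted because their BFU-E sums lay above the floor of 3 counts. Over every gene above 3 counts in a plate, 46.3% were at least 2-fold lower in CFU-E cells. The median log2 fold of the 10 genes was −3.10, or −4.00 with zeros set to the floor, beside a median of −0.57 over the measured genes. Scaling by TMM factors moves log2 ratios of CFU-E over BFU-E up by 0.57, which left 10 of 10 at least 2-fold lower beside 18.8% of the measured genes. With cluster 2 and the lymphoid-like cells left out, 8 of 10 were at least 2-fold lower, beside 32.1% of 9121 measured genes lower and 6.21% higher. With only the lymphoid-like cells left out, 10 of 10 were lower, beside 34.5% of the measured genes lower and 6.52% higher. With only cluster 2 left out, 8 were lower and Il7r was higher, beside 31.4% lower and 6.12% higher. Without cluster 2 and the lymphoid-like cells, Csf2rb2 and Il7r were without a count on both sides, and only Il2rg had a mean of at least 5 CPM.

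**Figure D1:**
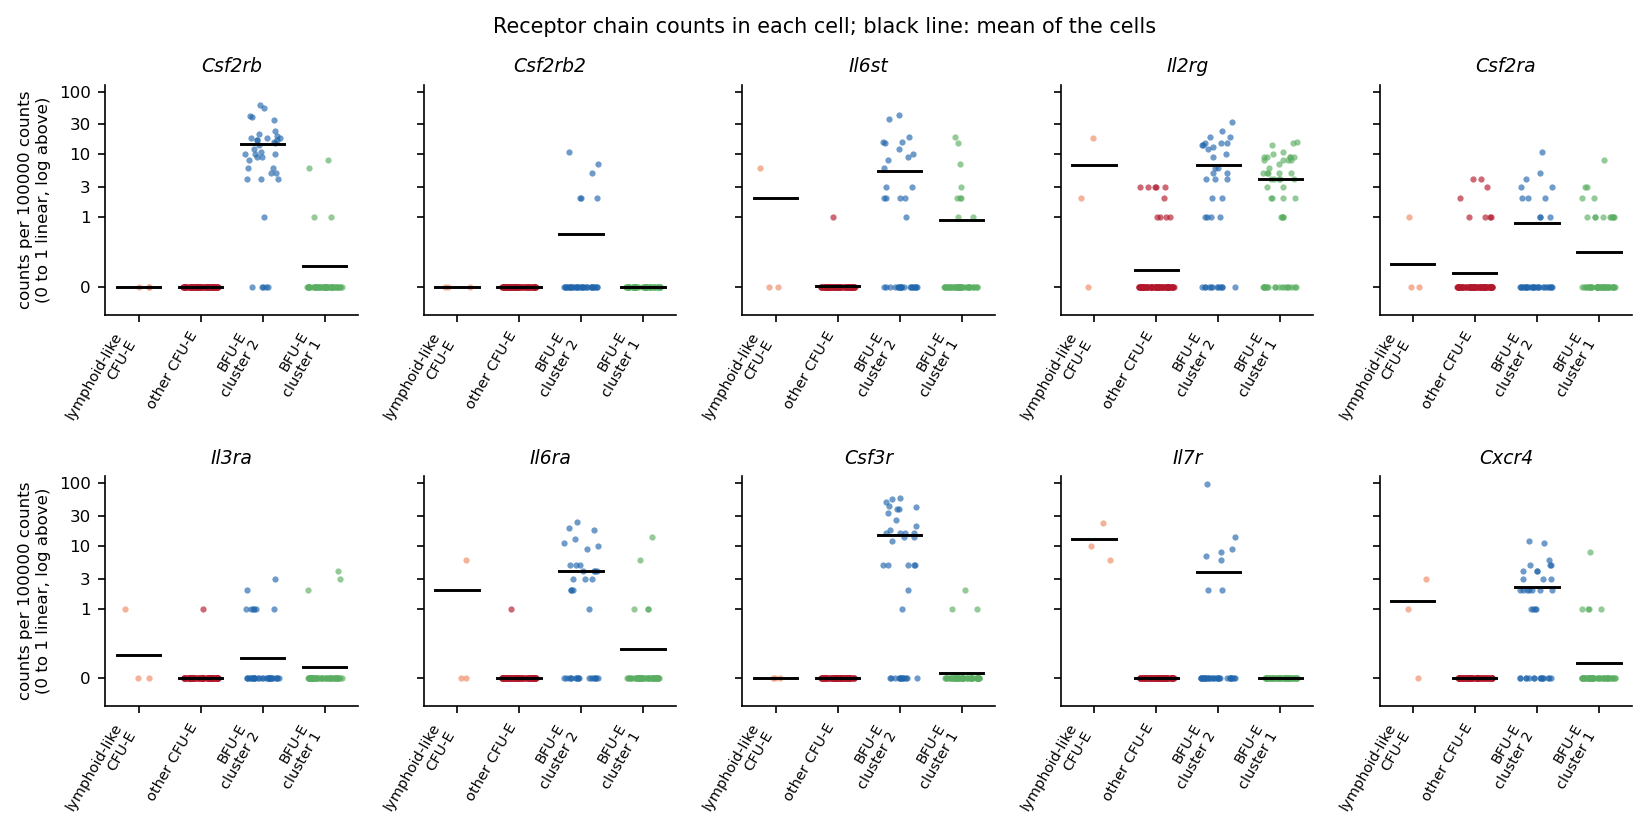
Counts of each receptor gene per 100000 counts in every kept cell (y axis linear to 1 and logarithmic above), for 3 lymphoid-like CFU-E, 86 other CFU-E, 38 cluster 2 BFU-E and 54 cluster 1 BFU-E cells, with the mean as a black line. Csf2rb and Csf3r are nearly limited to cluster 2, where their means equal 147 CPM, while Il2rg is spread over both BFU-E clusters.

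Csf2rb, the common beta chain, had 0 counts in CFU-E cells and stood at 62.6 CPM (57.6 to 67.9) in BFU-E cells. With 3 counts over the plate as the floor, it was at least 186-fold lower in CFU-E cells. That bound rests on the floor of 0.337 CPM, while the exact upper limit of the 0 counts was 0.414 CPM. The mean of cell CPM before thinning was 0.435 in CFU-E and 58.8 in BFU-E cells, a fold under that bound. Before thinning, 2 CFU-E cells held 25 counts, 23 of them in a lymphoid-like cell. Within the BFU-E plate, 560 of the 576 counts lay in cluster 2. Csf2rb had a count in 33 of 38 cells of cluster 2, with a highest value of 62 per 100000 counts and a median of 14 in the cells that had any. Before thinning Csf2rb had a count in 37 of 38 cells of cluster 2 and 13 of 54 cells of cluster 1. After thinning 4 of 54 cells of cluster 1 had a count, with 8, 6, 1 and 1, and without the highest of them cluster 1 stood at 1.51 CPM. With all cells the level was 147 CPM (135 to 160) in cluster 2 and 2.96 CPM (1.69 to 4.81) in cluster 1, a ratio of 49.7 (30.4 to 87.6). In the 4 cluster 1 cells with Csf2rb the granulocyte-monocyte markers had a median of 49 counts, against 4 in the other 50 cells of cluster 1, and their part in the result was not tested.

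Csf2rb2, the mouse duplicate that pairs with the IL-3 receptor alpha chain, was the rarer of the pair. It had 0 counts in CFU-E cells, thinned or not, and 3.15 CPM (2.11 to 4.53) in BFU-E cells. All 29 counts lay in 6 cells of cluster 2, with 11, 7, 5, 2, 2 and 2 per 100000 counts, and each of these cells also held Csf2rb. Without the highest of them Csf2rb2 stood at 1.98 CPM in BFU-E cells. The 2 genes lie 20030 bases apart on chromosome 15, at 78325752 to 78353847 for Csf2rb and 78282507 to 78305721 for Csf2rb2 (GRCm38). Their coding sequences, of 2691 and 2637 bases, were 95.2% identical over 2631 aligned bases, and 26.003% of the 50-base windows of Csf2rb occurred in Csf2rb2. Reads from such windows may have been dropped or given to either gene, so the split between the 2 is uncertain.

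Il6st, the signalling chain gp130, stood at 0.787 CPM (0.316 to 1.62) in CFU-E cells and 27.9 CPM (24.6 to 31.6) in BFU-E cells, 35.5-fold lower in CFU-E (16.99 to 89.2). Of its 7 counts in CFU-E cells, 6 were in a single lymphoid-like cell. Without the lymphoid-like cells it was at 0.116 CPM on 1 count, 240-fold lower (42.7 to 9525). Before thinning Il6st had a count in 21 of 38 cells of cluster 2 and 19 of 54 cells of cluster 1. After thinning it had a count in 18 of 38 cells of cluster 2 and 9 of 54 cells of cluster 1, with highest values of 42 and 19 per 100000 counts. The level was 53.9 CPM in cluster 2 and 9.63 CPM in cluster 1, a ratio of 5.602 (4.11 to 7.75), and cluster 1 stood at 6.23 CPM without its highest cell. The other CFU-E cells were still 82.8-fold below cluster 1 alone (14.2 to 3333).

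Il2rg, the common gamma chain, did not follow this split. It stood at 4.61 CPM (3.31 to 6.25) in CFU-E cells and 51.4 CPM (46.9 to 56.3) in BFU-E cells, 11.2-fold lower in CFU-E (8.10 to 15.8). It had a count in 26 of 38 cells of cluster 2 (68.4%, exact interval 51.3 to 82.5%) and 36 of 54 cells of cluster 1 (66.7%, 52.5 to 78.9%). The level was 66.8 CPM (58.9 to 75.6) in cluster 2 and 40.6 CPM (35.4 to 46.3) in cluster 1, a ratio of 1.65 (1.37 to 1.98). That ratio depended on the cells used: log2 folds of cluster 2 over cluster 1 were 1.35 in cells with odd label numbers and 0.02 in cells with even ones. Odd and even label numbers also carried different second indices, and an effect of the index was not tested. The other CFU-E cells held 2.44 CPM (1.51 to 3.73), 16.6-fold below cluster 1 (10.6 to 27.4), with a count in 10 of 86 cells and no cell above 3. Il2rg was thus the chain that erythroid-marker-rich BFU-E cells held most often and CFU-E cells mostly lacked. Of its 41 CFU-E counts, 20 lay in the lymphoid-like cells, 18 of them in a single cell, without which CFU-E cells stood at 2.61 CPM. Of the 2387 exonic bases of Il2rg, 728 are shared with Gm20489, which had 0 counts in both plates. How reads in that stretch were counted is not known, so the level of Il2rg per kilobase is uncertain.

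**Figure D2:**
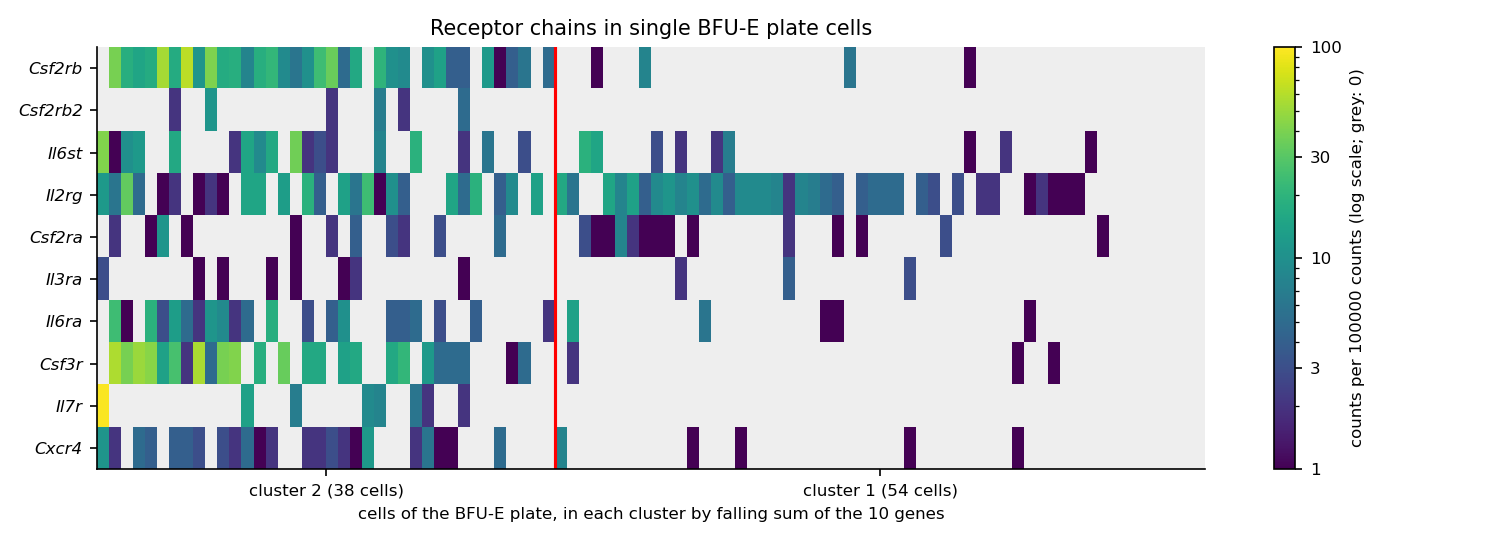
Counts per 100000 counts (colour, log scale, grey for 0) of the 10 receptor genes in the 92 BFU-E plate cells, with the 38 cells of cluster 2 on the left and the 54 of cluster 1 on the right of the red line. Il2rg fills both sides, Csf2rb and Csf3r fill the left, and Il7r lies in 8 cells of the left.

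Among the ligand-specific chains, Csf3r, the G-CSF receptor, had 0 counts in CFU-E cells, thinned or not, and 61.1 CPM (56.1 to 66.4) in BFU-E cells, at least 181-fold lower in CFU-E. Of 562 counts, 558 were in cluster 2, where 25 of 38 cells had a count, up to 57 per 100000. Before thinning Csf3r had a count in 29 of 38 cells of cluster 2 and 11 of 54 cells of cluster 1. After thinning 3 of 54 cells of cluster 1 had counts, of 2, 1 and 1, and without the highest of them cluster 1 stood at 0.377 CPM. The level was 147 CPM (135 to 160) in cluster 2 and 0.741 CPM (0.202 to 1.90) in cluster 1, a ratio of 198 (76.99 to 730). With cluster 2 and the lymphoid-like cells left out, CFU-E cells were at least 2.12-fold below cluster 1, on 4 counts of cluster 1.

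Il6ra, which binds IL-6 and hands it to gp130, stood at 0.787 CPM (0.316 to 1.62) in CFU-E cells and 18.9 CPM (16.2 to 21.9) in BFU-E cells, 24.05-fold lower in CFU-E (11.4 to 60.7). Of its 7 CFU-E counts, 6 were in the lymphoid-like cell that also held Il6st. Il6ra had a count in 21 of 38 cells of cluster 2 and 5 of 54 cells of cluster 1, at 39.7 and 4.26 CPM, a ratio of 9.33 (5.99 to 15.2). A single cluster 1 cell, with 14 counts of Il6ra per 100000 and the highest granulocyte-monocyte marker sum of the cluster, held 60.9% of the cluster's Il6ra. Without that cell cluster 1 stood at 1.70 CPM.

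Csf2ra and Il3ra, the alpha chains for GM-CSF and IL-3, were low in every class of cells. Csf2ra stood at 2.02 CPM (1.20 to 3.20) in CFU-E cells and 6.74 CPM (5.17 to 8.64) in BFU-E cells, 3.33-fold lower in CFU-E (1.95 to 5.99). It had a count in 8 of the 86 other CFU-E cells, in 11 of 38 cells of cluster 2 and in 14 of 54 cells of cluster 1. The level was 9.21 CPM (6.42 to 12.8) in cluster 2 and 5.0 CPM (3.30 to 7.27) in cluster 1, a ratio of 1.84 (1.08 to 3.16). The other CFU-E cells were 2.53-fold below cluster 1 (1.33 to 4.95). Il3ra had 2 counts in CFU-E cells and 20 in BFU-E cells, which is 0.225 CPM (0.0272 to 0.812) and 2.17 CPM (1.33 to 3.36), 9.67-fold lower in CFU-E (2.35 to 85.4). Its ratio of cluster 2 over cluster 1 was 1.74 (0.654 to 4.74), an interval that includes 1. It was not detectable at this depth which cluster held more Il3ra.

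Il7r, the alpha chain for IL-7, was carried by few cells on either plate. It stood at 4.38 CPM (3.12 to 5.99) in CFU-E cells and 15.9 CPM (13.4 to 18.7) in BFU-E cells, 3.62-fold lower in CFU-E (2.53 to 5.30). All 39 CFU-E counts were in the 3 lymphoid-like cells, with 23, 10 and 6 per 100000, and none were in the other 86. All 146 BFU-E counts were in 8 cells of cluster 2, with 98, 14, 9, 8, 7, 6, 2 and 2. The cell with 98 counts held 67.1% of the plate's Il7r, and without the highest cell of each plate the levels were 1.82 CPM in CFU-E and 5.27 CPM in BFU-E cells. In cells with odd label numbers the order turned round, with 8.48 CPM in CFU-E and 8.13 CPM in BFU-E cells. All 3 lymphoid-like cells have odd numbers. Without them the other CFU-E cells were at least 45.5-fold below the BFU-E plate, and with them but without cluster 2 the CFU-E plate was at least 7.89-fold above cluster 1.

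Cxcr4 stood at 0.449 CPM (0.122 to 1.15) in CFU-E cells and 10.3 CPM (8.35 to 12.6) in BFU-E cells, 22.98-fold lower in CFU-E (8.68 to 86.1). Its 4 CFU-E counts were in 2 of the lymphoid-like cells. It had a count in 23 of 38 cells of cluster 2 and 5 of 54 cells of cluster 1, at 21.8 CPM (17.4 to 27.1) and 2.22 CPM (1.15 to 3.88), a ratio of 9.83 (5.34 to 19.8). A single cluster 1 cell with 8 counts held 66.7% of the counts there, and without it cluster 1 stood at 0.755 CPM.

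Between the clusters, 7 of 10 receptor genes were at least 2-fold higher in cluster 2 than in cluster 1, beside 13.7% of 9934 measured genes higher and 8.92% lower. These were 3 of 4 shared chains (without Il2rg), 3 of 5 ligand-specific chains (without Csf2ra and Il3ra) and Cxcr4. Of the 10, 8 had the mean of at least 5 CPM that the measured genes have, without Csf2rb2 and Il3ra. Csf2rb2 is counted because its cluster 2 sum lay above the floor of 3 counts. No share over all genes at that floor was computed between the clusters. The median log2 fold of the 10 was 2.89, or 3.26 with zeros at the floor, beside 0.00 over all measured genes. A cell of cluster 2 had counts of a median of 5 of the 10 genes, with 1 to 7 in a cell. A cell of cluster 1 had a median of 1, with 0 to 3, and 8 of 54 had none. Of the other 86 CFU-E cells, 66 had none and no cell had more than 2.

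Per kilobase of exon, which allows genes to be set side by side, the order of levels in cluster 2 was Csf3r (40.7 CPM per kilobase), Il2rg (28.003), Csf2rb (20.3), Cxcr4 (12.1), Il7r (8.24), Il6st (4.86), Il6ra (4.60), Csf2ra (3.21), Csf2rb2 (1.61) and Il3ra (0.976). Neighbours from Cxcr4 to Il7r and from Il6st down to Il3ra had overlapping intervals, and the place of Il7r rests on 1 cell. In cluster 1, Il2rg stood first at 16.99 CPM per kilobase, and no other of the 10 exceeded the 1.74 of Csf2ra. In the other CFU-E cells Il2rg (1.02 CPM per kilobase) and Csf2ra (0.689) were highest, and Il3ra, Il6ra and Il6st rested on 1 count each.

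Cells with both chains of a receptor were counted, since the receptor on a cell's own membrane signals through the pair. The overlaps that the separate shares of the chains alone would give were not computed. The counts therefore do not show that 2 chains share cells beyond those shares. For GM-CSF, Csf2ra and Csf2rb were both present in 11 of 38 cells of cluster 2 (28.9%, 15.4 to 45.9%) and 2 of 54 cells of cluster 1 (3.70%). Each of the 11 cluster 2 cells with Csf2ra held Csf2rb, while only 2 of 14 did in cluster 1. Before thinning these were 21 of 21 cells in cluster 2 and 3 of 19 in cluster 1. After thinning, Csf2rb itself had a count in 33 of all 38 cells of cluster 2 and 4 of all 54 cells of cluster 1. In CFU-E cells 9 held Csf2ra and 0 of 89 held both, which at 3 cells of the total allows a share with counts of both, at this depth, of up to 3.37%. Before thinning 2 of 89 held both, 1 of them lymphoid-like. The alpha chain was thus present in all classes of cells, and it was the beta chain whose counts lay almost wholly in cluster 2. For IL-3, 7 of 38 cells of cluster 2 held Il3ra with Csf2rb or Csf2rb2, against 0 of 54 in cluster 1 and 0 of 89 CFU-E cells.

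For IL-6, in cluster 2, 21 cells held Il6ra, 18 held Il6st and 9 held both (23.7%, 11.4 to 40.2%), against 0 of 54 in cluster 1 and 1 lymphoid-like CFU-E cell. For IL-7 the ligand-specific chain was the scarce one. Cluster 2 had 8 cells with Il7r, 26 with Il2rg and 5 with both, and cluster 1 had 36 cells with Il2rg and none with Il7r, so 0 of 54 held both, which by the same rule allows up to 5.56% at this depth. Of the 3 lymphoid-like CFU-E cells, 2 held both. With all counts in place of thinned ones, cells of cluster 2 with both chains numbered 21 for GM-CSF, 11 for IL-3, 19 for IL-6 and 8 for IL-7, and those of cluster 1 numbered 3, 2, 2 and 1, so these shares depend on depth.

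**Figure D3:**
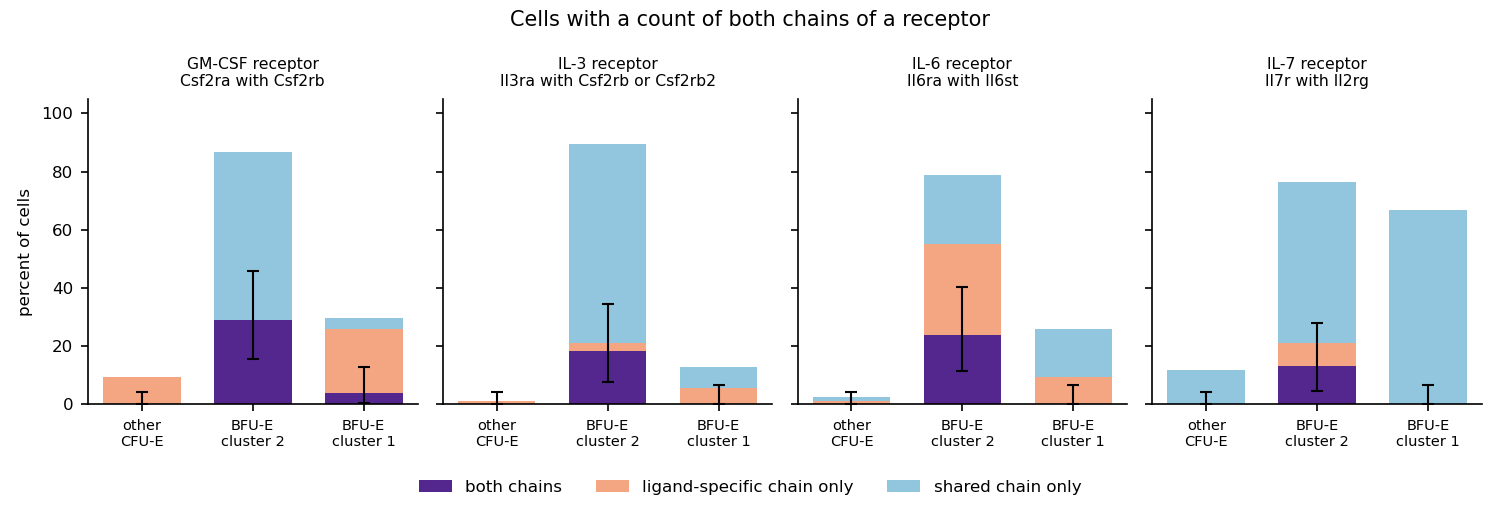
Percent of cells with counts of both chains (purple, with exact 95% intervals), of the ligand-specific chain only (orange) or of the shared chain only (blue), for 4 receptors in the 86 other CFU-E cells, cluster 2 and cluster 1. In cluster 1, GM-CSF is mostly orange, with 3.70% of cells purple, and IL-7 is blue without purple.

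Inside cluster 2, few cells held both Csf3r and Il7r. All 25 cells with Csf3r held Csf2rb, which is 25 of the 33 with Csf2rb. Of the 25 cells with Csf3r and the 8 with Il7r, 2 held both. Il6ra, in 21 cells, also shared only 2 with Il7r, while Il6st, in 18 cells, shared 6. The overlap that the separate shares alone would give was not computed. The summed granulocyte-monocyte markers had a median of 528 counts per 100000 in cells with Csf3r, against 311 in cells without it. For Il7r the medians were 170 in cells with it and 517.5 in cells without it. The lymphoid markers ran the other way, with medians of 21 counts in cells with Csf3r and 78 without, and 89.5 in cells with Il7r and 23 without. Over the 38 cells, Spearman's rho of Csf3r was 0.54 with the granulocyte-monocyte sum and −0.51 with the lymphoid sum, and rho of Il7r was −0.42 and 0.47. These correlations describe cells of 1 plate that share its lane, and both sums are shares of the same 100000 counts. The cell with 98 counts of Il7r held 205 of the lymphoid and 234 of the granulocyte-monocyte markers, with 42 counts of Il6st, 12 of Il2rg and 11 of Cxcr4 and none of Csf2rb or Csf3r.

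**Figure D4:**
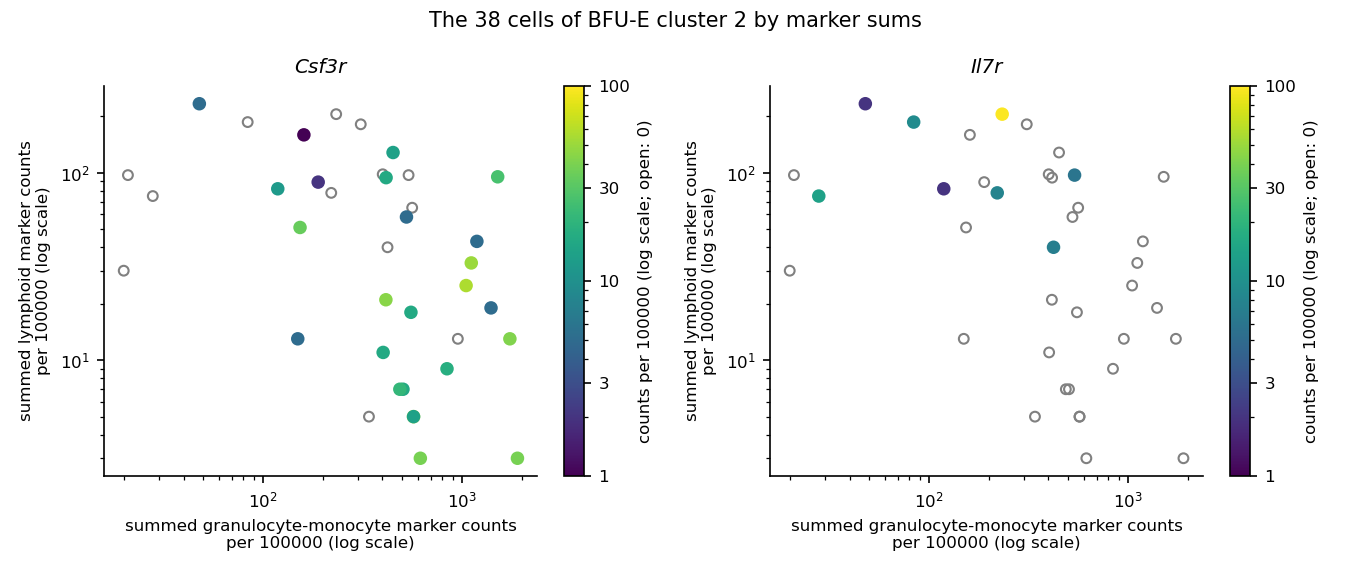
Each of the 38 cluster 2 cells by its summed granulocyte-monocyte marker counts (x axis) and lymphoid marker counts (y axis) per 100000, both log scales, coloured by Csf3r on the left and Il7r on the right, with open circles for no count. The median lymphoid sum is 89.5 in cells with Il7r and 21 in cells with Csf3r.

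The genes most alike to each receptor gene were ranked by Spearman correlation of log2(CPM + 1) over the 92 BFU-E cells, among 8272 genes, for the 7 receptor genes with a count in at least 20% of the cells. The cells fall into the 2 clusters and share a plate. Csf2rb was most like BC035044 (0.78), Mpo, the neutrophil granule peroxidase (0.77), and Emb (0.77). Csf3r was most like Csf2rb (0.72), Mpo (0.71) and Adgrl4 (0.69). Il6ra was most like H2-DMa, Plac8 and Unc93b1 (0.59 to 0.55), Cxcr4 like Arid3a, Tifab and Glipr1 (0.57 to 0.55), and Il6st like Tyrobp, Tnfrsf1b and Pak1 (0.51 to 0.46). Il2rg and Csf2ra had weaker neighbours, led by Ubr4 (0.42) and Lrmda (0.45). With all counts in place of thinned ones, 2 of 3 neighbours remained for Csf2rb, Csf3r and Il2rg, 1 of 3 for Il6st, Il6ra and Cxcr4, and 0 of 3 for Csf2ra.

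Promoters of 9 of the 10 genes were in the RefSeq table of GRCm38.p6, and Csf2rb was not matched. The 250 bases before the start of 3 genes are shown because the genes differ in pattern: Csf2rb2 and Il6ra were higher in cluster 2 than in cluster 1, and Il2rg was present in a like share of cells of both. Capitals mark the word GAGGAA, bound by ETS factors such as PU.1, and the GATA factor words, which start with AGATA or TGATA and end in A or G. Each was searched on both strands and here found as the reverse complement. The sequences run 5′ to 3′ and all 3 lie on the minus strand, at chr15:78305722-78305971 for Csf2rb2, chr3:89913197-89913446 for Il6ra and chrX:101268256-101268505 for Il2rg.
Csf2rb2: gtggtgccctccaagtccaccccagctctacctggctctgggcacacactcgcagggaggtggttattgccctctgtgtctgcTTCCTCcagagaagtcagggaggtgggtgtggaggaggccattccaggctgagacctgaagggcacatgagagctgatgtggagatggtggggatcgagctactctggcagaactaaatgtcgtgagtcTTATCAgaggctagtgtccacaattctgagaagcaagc
Il6ra: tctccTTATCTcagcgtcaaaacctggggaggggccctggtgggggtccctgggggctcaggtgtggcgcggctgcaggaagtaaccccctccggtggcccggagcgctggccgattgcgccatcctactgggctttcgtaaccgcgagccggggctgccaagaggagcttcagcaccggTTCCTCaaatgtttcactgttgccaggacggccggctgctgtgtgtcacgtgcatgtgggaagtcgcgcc
Il2rg: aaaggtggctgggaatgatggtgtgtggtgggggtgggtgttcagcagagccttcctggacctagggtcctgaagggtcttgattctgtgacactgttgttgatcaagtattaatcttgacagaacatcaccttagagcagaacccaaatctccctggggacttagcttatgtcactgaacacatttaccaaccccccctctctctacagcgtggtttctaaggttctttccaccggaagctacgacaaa
In Csf2rb2 the ETS word began 167 and the GATA word 38 bases before the start, and in Il6ra 70 and 245 bases before it. Il2rg had neither word in this window. Il6st, Il7r and Cxcr4, which were higher in cluster 2 than in cluster 1, also had neither word. The 3 genes shown therefore do not stand for a link between these words and the clusters. The ETS word occurred in 4 of the 9 promoters and a GATA word in 3 of 9, beside 23.3% and 26.5% of 32851 mouse promoters of the same length, so these words are common and a match is not a site.

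Related genes were counted from 5 lists with 104 genes. Of 65 measured, 48 were at least 2-fold lower and 3 higher in CFU-E than in BFU-E cells, and with TMM factors 36 were lower and 4 higher. Over all measured genes these shares were 34.2% lower and 6.45% higher, with a median log2 fold of −0.57. Of 23 other cytokine receptor chains measured, 20 were lower and 1 higher, with a median log2 fold of −2.60. Csf1r, the M-CSF receptor, stood at 0.337 CPM in CFU-E and 203 CPM in BFU-E cells, 602-fold lower on 3 counts (206 to 2922). Il21r, which pairs with Il2rg, stood at 0.225 CPM in CFU-E and 39.9 CPM in BFU-E cells, 178-fold lower on 2 counts (48.8 to 1471). Of its 367 BFU-E counts, 30 lay in cluster 1 (5.56 CPM), and the other CFU-E cells had 0. Epor, the erythropoietin receptor, was the 1 gene higher, at 391 CPM in CFU-E and 85.98 CPM in BFU-E cells, 4.55-fold (4.21 to 4.92). In the other CFU-E cells Epor was 2.80-fold above cluster 1 (2.59 to 3.03). Csf1r was at 488 CPM in cluster 2 and 2.04 CPM in cluster 1.

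Of the 11 Janus kinases and STATs, 5 were lower and 0 higher in CFU-E cells, with a median log2 fold of −0.85. This count lies near the 34.2% lower and 6.45% higher over all measured genes, whose median was −0.57. In the other CFU-E cells against cluster 1, 7 of the 11 were lower and 0 higher, with a median log2 fold of −1.12. Over all measured genes 32.1% were lower and 6.21% higher there, with a median of −0.54. Jak3, the kinase that binds Il2rg, stood at 14.9 CPM in CFU-E and 76.96 CPM in BFU-E cells, 5.15-fold lower (4.27 to 6.25), and was 4.001-fold lower in the other CFU-E cells than in cluster 1. Stat4 was 70.9-fold lower on 3 counts (23.96 to 347). Jak1 and Stat5b, used by many of these receptors, differed by less than 2-fold, at 198 and 61.01 CPM in CFU-E against 181 and 62.2 CPM in BFU-E cells.

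Of 22 adaptors and feedback genes measured, 14 were lower and 2 higher, beside 34.2% and 6.45% of all measured genes. Their median log2 fold was −1.66. Ptprc, the CD45 phosphatase, was 392-fold lower in CFU-E cells (190 to 975) and the phosphatase Ptpn6 13.3-fold (11.8 to 15.2). Gab1, an adaptor, was 4.64-fold higher (3.75 to 5.77) and Socs2, a feedback inhibitor, 2.08-fold (1.59 to 2.74). In the other CFU-E cells Gab1 was 6.14-fold above cluster 1 (4.57 to 8.41). Socs2 was there only 1.31-fold above it (0.997 to 1.74), an interval that includes 1. Of 19 ligands of the receptors only Il15 was measured, at 0 CPM in CFU-E and 10.8 CPM in BFU-E cells, at least 31.9-fold lower. The list of chemokine receptors also held S1pr1, a receptor for a lipid. Its 8 measured genes were all lower, with a median log2 fold of −4.00. By log2(CPM + 1) the changes of Ccr2 (at least 235-fold), Cx3cr1 (at least 78.04-fold) and Ccr9 (60.3-fold, 27.4 to 165) came first. In cluster 2 over cluster 1, 7 of these 8, without S1pr1, were at least 2-fold higher, as were 11 of 25 other cytokine receptor chains, with 4 lower, and 1 of 11 Janus kinases and STATs, with 2 lower. Over all measured genes 13.7% were higher and 8.92% lower in cluster 2.

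**Figure D5:**
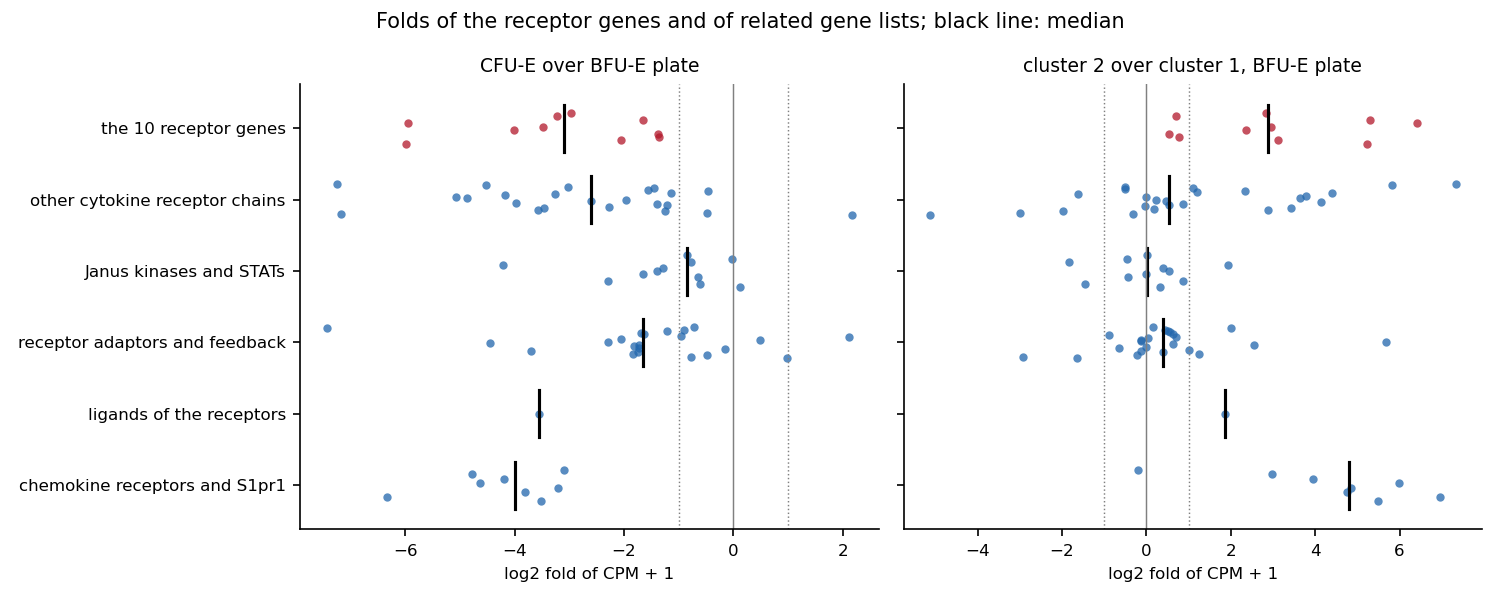
Log2 folds on the CPM + 1 scale of the 10 receptor genes (red) and of the measured genes of 5 related lists (blue), for CFU-E over BFU-E cells on the left and cluster 2 over cluster 1 on the right, with medians as black lines and dotted lines at 2-fold. The 10 genes all lie left of the lower dotted line on the left (median −3.10) and right of 0 on the right (median 2.89).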

How the data were processed

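Single cells were profiled with SmartSeq2 and Nextera XT, which read whole transcripts and mark neither strand nor molecule. The deposited table holds raw read counts for each gene, made by the authors with STAR 2.4 and featureCounts (version not given) on GRCm38, per the submitters' processing notes. These sources do not state which annotation release was used, whether strand was, or how multi-mapping reads were handled. Of 192 cells in the labels, 191 were matched to a column by name. A CFU-E cell without a matching column is not used here, and 1 column of values matched no label and stayed out.

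A cell needed 100000 counts and 2000 genes, which removed 6 CFU-E and 4 BFU-E cells, and each kept cell was thinned to 100000 counts (seed 1). Levels are CPM of the summed thinned counts with exact Poisson intervals. Folds carry exact conditional binomial intervals and shares exact Clopper-Pearson intervals, at 95%. A gene was measured at a mean of at least 5 CPM over the groups compared, and log2 folds were taken on log2(CPM + 1). Zeros were replaced, for bounds, by a floor of 3 counts summed over the group, equal to 0.337 CPM in CFU-E and 0.326 CPM in BFU-E cells. Folds were left out where neither group exceeded this floor. Bounds given as at least a fold are set by the floor and are not 95% limits. Beside a share of 0 the upper limit given is 3 cells of the total. A single gene outside the filter was counted when its higher group held more than 3 counts. Cells were clustered in each plate with Ward linkage of 10 principal components of the 1000 most variable genes without the 10 receptor genes, with 2 to 5 clusters by the highest mean silhouette. No doublet caller was run on these singly sorted cells. No test was made, because each cell type is 1 sample and cells are not replicates.

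The genes named were the 10 receptor genes, the 3 measured genes with the largest log2 fold in each direction in each related list, where at least 2-fold, the 3 genes most alike to each receptor gene, and marker genes beside a result. Some genes that this rule takes are not reported here. Jak1 and Stat5b were named after their values were seen, as were the 5 cells described singly. The receptor genes, lists, markers and alternatives were chosen with earlier results of these data known. Positions, exonic lengths and transcripts came from GENCODE M21 (GRCm38), and coding sequences are the longest open reading frames of the longest protein-coding transcripts. The scripts recovered set folds of genes with at least 5 CPM in simulated sums that held counting error only. This does not show how the intervals hold for real counts, with PCR copies, spread between cells and lower levels. Python 3.11.15, numpy 2.4.6, scipy 1.17.1, pandas 2.3.3, scikit-learn 1.9.0 and, for TMM factors, edgeR 4.0.16 in R 4.3.3 were used. The alternatives covered the scaling, the thinning, the cell filter, the filter on low values, the pseudocount, the clustering, cells with odd or even label numbers, and the removal of the highest cell, of cluster 2 or of the lymphoid-like cells.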

Additional observations from a re-analysis of the deposited data

How the results depend on the processing

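The number of receptor genes at least 2-fold lower in CFU-E cells was 8 to 10 under every scaling, thinning, cell filter, split of the cells and removal tried, and the number at least 2-fold higher in cluster 2 was 7 to 9 under other clusterings, a split by marker sums, no thinning and odd or even cells. Genes of the 5 related lists at least 2-fold lower in CFU-E cells numbered 32 to 53. The share of measured genes at least 2-fold lower moved more, to 18.8% with TMM factors, 16.8% with median-of-ratios factors, 40.6% at a mean of at least 1 CPM and 46.3% over every gene above 3 counts in a plate.

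Of 130 alternative folds of the 10 genes between plates, 2 changed direction, both for Il7r, with log2 folds of 0.055 in cells with odd label numbers and 2.43 against BFU-E cells without cluster 2. Another 29 moved by over 1.5 times, as did 16 of 60 folds between clusters. The 130 include the 10 folds of the alternative with a mean of at least 1 CPM, which uses the same sums and could not change them. Folds of Csf2rb2 and Il7r went to 0 where neither side had a count. Among the 16, Il3ra, which was under 2-fold, changed direction, with log2 folds of −0.92 in odd cells and 2.46 in even cells, against 0.55 in all. Leaving out the 3 lymphoid-like cells and leaving out both these and cluster 2 were alternatives chosen after seeing the data.

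Counts of BFU-E cells with both chains depended on depth and on the count required. From 13 for GM-CSF, 7 for IL-3, 9 for IL-6 and 5 for IL-7 they became 24, 13, 21 and 9 without thinning, and 1, 0, 4 and 3 with at least 5 counts of each chain. No paired analysis was possible because the label numbers only follow the order of the index pairs, and the results come from no test. Odd and even numbers carry different second indices, so those alternatives also split the cells by index. Without replicates, differences between animals, plates and lanes have no estimate, and the few counts of Il3ra do not order the clusters.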
